A study of Mus musculus with 10 samples.

Results

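The 10 genes described here encode AP-1 and immediate early transcription factors: the Fos family (Fos, Fosb, Fosl1 and Fosl2), the Jun family (Jun, Junb and Jund), and Atf3, Egr1 and Maff. They were taken by name from a table of 49568 genes, and all 10 were found. All 10 also passed the filter for testing (5 or more of the 10 lines at 10 or more normalized counts), which left 13089 genes. Messenger RNA had been sequenced from 10 mouse pancreatic cancer cell lines, 1 library each. Of the 5 KPC lines the names are A2032, A2031, A1625, A1620 and A1081. The 5 of genotype KPCAf/f are A3992, A2441, A1925, A1809 and A1693. KPC mice are a widely used model of pancreatic cancer in which Cre acts in the pancreas. The labels do not list the alleles or the Cre driver, nor the age, passage or clonal origin of a line. In KPCAf/f, the letter A was taken to mean Arid1a, a SWI/SNF subunit named in the title of the series, with both alleles floxed. All lines were grown in serum, and the labels do not give the time from the last change of medium to harvest. Since nothing says that each line came from its own mouse, p-values measure the spread between these lines only.

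AP-1 is a dimer of proteins that share a basic region, which contacts DNA, and a leucine zipper, which joins the partners. Jun proteins can pair with each other or with Fos proteins, whereas Fos proteins need a Jun partner. Fos, Fosb, Egr1 and Atf3 are immediate early genes, transcribed within minutes of serum, growth factors or stress through MAP kinases and factors such as SRF, and their RNAs are short-lived. Fosl1 and Fosl2 follow later and last longer, and sustained ERK signalling is known to maintain Fosl1. Jund is present in most cells at rest.

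Promoter sequences bear on these genes because several of them are known targets of the factors they encode. RefSeq (GRCm38.p6) promoters were at hand for 8 of the 10 members, and not for Egr1 and Fosl1. Those shown, 250 bases up to the annotated start, belong to the member with the largest difference between genotypes (Jun) and to the member that varied most among KPC lines (Fos). They lie at chr4:95052223-95052472 on the minus strand (Jun) and chr12:85473640-85473889 on the plus strand (Fos). Capitals mark matches to the motifs searched on both strands: the AP-1 site TGACTCA, the CRE TGACGTCA, its first 6 bases TGACGT, the variant site TGACATCA, and the CArG box bound by SRF.
Jun: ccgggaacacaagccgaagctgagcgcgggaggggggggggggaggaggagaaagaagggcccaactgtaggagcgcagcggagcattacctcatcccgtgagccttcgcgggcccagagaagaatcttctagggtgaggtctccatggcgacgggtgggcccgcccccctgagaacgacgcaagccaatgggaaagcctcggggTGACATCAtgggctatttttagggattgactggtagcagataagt
Fos: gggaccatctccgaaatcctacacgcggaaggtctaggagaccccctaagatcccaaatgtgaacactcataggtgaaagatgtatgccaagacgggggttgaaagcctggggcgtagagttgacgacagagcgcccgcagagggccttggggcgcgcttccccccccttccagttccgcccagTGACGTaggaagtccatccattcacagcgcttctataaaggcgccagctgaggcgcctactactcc

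The Jun window held TGACATCA, 45 to 38 bases before the start, and the Fos window held TGACGT, 66 to 61 bases before it. Of the members without a call, Atf3 held TGACGT, 8 to 3 bases before the start, and the third window of Maff held TGACATCA, also 45 to 38 bases before it. The window of Fosl2, the other gene called, held none of these letters. TGACATCA was present in 2.93% of all 32851 promoter windows of this length and TGACGT in 6.47%. The full CRE, which contains TGACGT, was present in 1.55% of windows and in 1 of the 3 windows of Maff. The AP-1 site TGACTCA was in 4.46% of windows and the CArG box in 1.47%, and neither was in a window of the 8 members. Bases further upstream lay outside these short windows and were not searched. The lack of a match here therefore does not show that a gene lacks the site. A match describes letters only.

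Reads assigned to genes ranged from 15124888 to 20419830 per library, and the members had between 24 reads (Fos and Fosb in A1620) and 5026 reads (Junb in A1620). Values are counts normalized for library size, and a fold change divides KPCAf/f by KPC after adding 1 to each normalized count and taking log2, which understates the change of low genes. Arid1a itself was at 2267, 819.9, 3109, 2460 and 1915 in the KPC lines A1081, A1620, A1625, A2031 and A2032. It was at 1785, 1253, 1510.0, 1258 and 1519 in the KPCAf/f lines A1693, A1809, A1925, A2441 and A3992 (log2 fold change -0.42, limma adjusted p = 0.563). Without A1620 this was -0.72 (limma adjusted p = 0.0857), and with the correction for transcript length it was -0.83 and passed (limma adjusted p = 0.0461). Which part is floxed is not stated, so a gene-level value does not check recombination. Where lines are not named, values follow these same 2 orders. Line A1620 stood apart, where each doubling of transcript length went with a log2 level changed by -0.65, against slopes of -0.02 to 0.15 in the other 9 lines. Line A1693 had 10.8 normalized counts of the epithelial cadherin Cdh1 and 2.7 of the pancreatic factor Pdx1, against lowest values of 3143 and 594 in the other 9 lines. Other markers of the labelled cell type remained there, with Krt8 at 2466, Krt18 at 2808 and the ductal factor Sox9 at 945, its highest level of the 10 lines. Summed levels of 10 fibroblast and mesenchymal markers were 62.9 to 173 in KPC and 14717 to 88400 in KPCAf/f lines, where 2 and 9 of the 10 had a mean of at least 10. The 10 epithelial markers summed to 168857 to 366440 in KPC and to 5922 to 133361 in KPCAf/f, and limma called 0 of them, with 4 at an unadjusted p under 0.05. Keratins and Cdh1 carry these sums, and Epcam (6720), Cldn4 (12503), Cldn7 (3170), Esrp1 (2689) and Grhl2 (1665) were highest in KPCAf/f line A1809. The 6 leukocyte markers summed to 35.8 to 86.6 in KPC and 41.4 to 293 in KPCAf/f, mostly Cd68, which was at 293 in A1693, while Ptprc stayed at or below 11.3. The 5 endothelial markers summed to 7.2 to 438 and 8.1 to 668, mostly Cdh5, which was at 415 in A1081, 106 in A1809 and 644 in A2441. The part of these markers in the members' values was not tested. Reads of 4 Y-linked genes summed to 1148 to 3415 in each KPC line and to 0 to 3 in each KPCAf/f line. Genotype, mesenchymal markers, Y-linked expression and the slope with transcript length therefore cannot be told apart in any comparison below.

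Jun and Fosl2 were higher in the KPCAf/f lines, and the other 8 members did not pass the test. Jun, the strongest activator of its family, rose about 4-fold, and Fosl2, a late and longer-lived Fos protein, rose about 2-fold. The 2 calls among 10 members stand beside 178 of 13089 genes (1.36%) called higher and 51 (0.39%) called lower over the whole table (limma, Benjamini-Hochberg adjusted p under 0.05). In either direction limma called 1.75% of genes. By edgeR 1 member was called, Fosl2, where 1.31% of genes were called, 1.11% higher and 0.206% lower. By limma-voom 0 members were called, where 0.802% of genes were, 0.581% higher and 0.222% lower. By DESeq2 both Jun and Fosl2 were called, where 5.58% of genes were, 3.98% higher and 1.6% lower. An unadjusted limma p under 0.05 was found for 3 members, the third being Egr1, and for 14.6% of all genes. The median log2 fold change was -0.01 both over the members and over all tested genes.

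**Figure D1:**
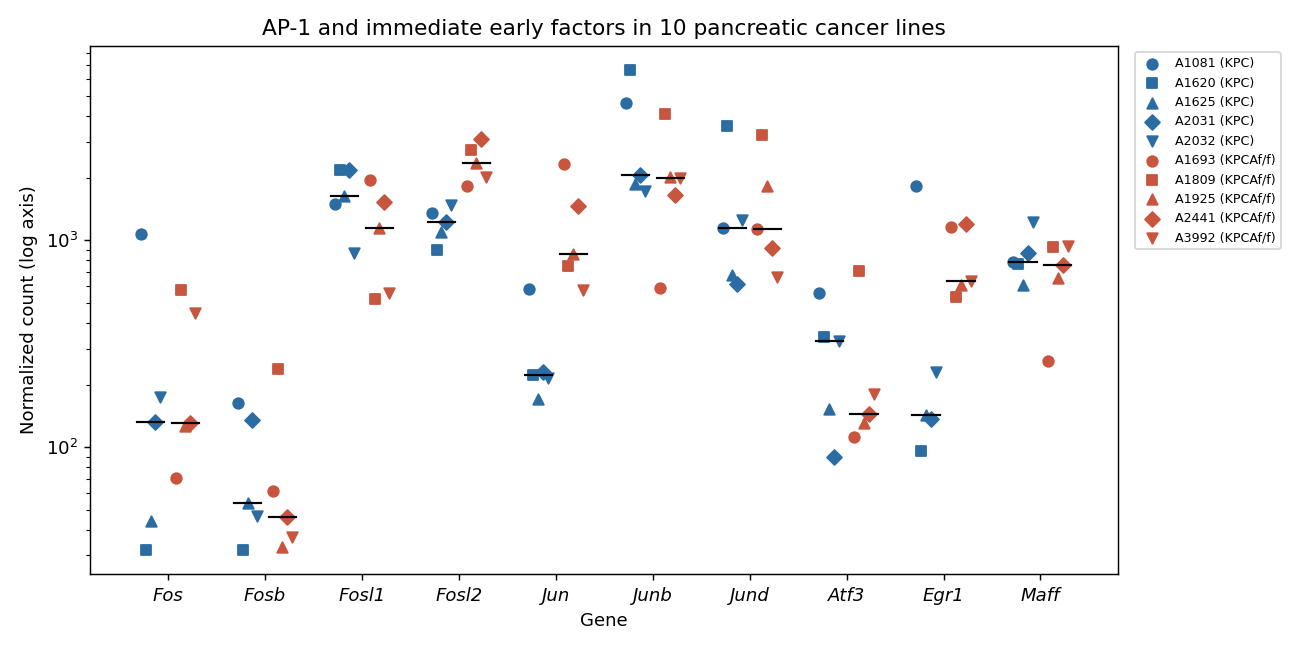
Normalized count (log axis) of each of the 10 genes in each line, KPC in blue and KPCAf/f in red, with 1 marker shape per line and a black bar at the median of 5 lines. Fosl2 shows no overlap between genotypes, Jun overlaps only through KPC line A1081, and Fos spans 31.8 to 1076 normalized counts within KPC.

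Jun was at 581 normalized counts in A1081, 224 in A1620, 171 in A1625, 231 in A2031 and 215 in A2032. In KPCAf/f it was at 2346 in A1693, 747 in A1809, 861 in A1925, 1463 in A2441 and 573 in A3992. All KPC lines but A1081 therefore lay below every KPCAf/f line, and A1081 lay just above A3992. The means were 285 ± 167 in KPC and 1198 ± 724 in KPCAf/f (SD, n = 5 each), or 210.5 ± 27.0 in KPC without A1081 (n = 4). The log2 fold change was 2.03 (SE 0.43, limma adjusted p = 0.0424). The call was lost without any 1 of A1620, A1625, A2031, A2032, A1693, A1925 or A2441 (limma adjusted p = 0.0703 to 0.108) and by edgeR (adjusted p = 0.0599), while the log2 fold change stayed between 1.69 and 2.32 under every setting tried. Jun is an intronless gene on chromosome 4 at 95049034 to 95052222 (GRCm38, minus strand). The antisense gene Junos overlaps it and was at 0 to 6.6 normalized counts in KPC and 5.6 to 106 in KPCAf/f, highest in A1693. How reads in the overlap were assigned is not known.

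Fosl2 was at 1352 normalized counts in A1081, 901 in A1620, 1097 in A1625, 1219 in A2031 and 1485 in A2032. The KPCAf/f lines had 1829 in A1693, 2723 in A1809, 2377 in A1925, 3100.5 in A2441 and 2014 in A3992. All 5 KPCAf/f lines lay above all 5 KPC lines, which was so for 372 of 13089 genes (2.84%) in this direction and for 4.53% in either, and no member was separated the other way. The means were 1211 ± 226 and 2409 ± 517 (SD, n = 5 each), with a log2 fold change of 0.99 (SE 0.20, limma adjusted p = 0.0347). Its longest annotated transcript, at 6537 bases, exceeds those of the other members (by the median transcript Egr1 and Fosb are longer), and with a correction for transcript length the log2 fold change was 0.66 and the call was lost (limma adjusted p = 0.121). The call was also lost without any 1 of A1081, A1620, A1625, A2031, A1809, A1925 or A2441 (limma adjusted p = 0.05002 to 0.0929). Without A1620 and A1693 together it held at a log2 fold change of 0.98 (limma adjusted p = 0.0338), whereas Jun, at 1.69, did not (adjusted p = 0.114). Fosl2 lies on chromosome 5 at 32135801 to 32157842 (GRCm38, plus strand).

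**Figure D2:**
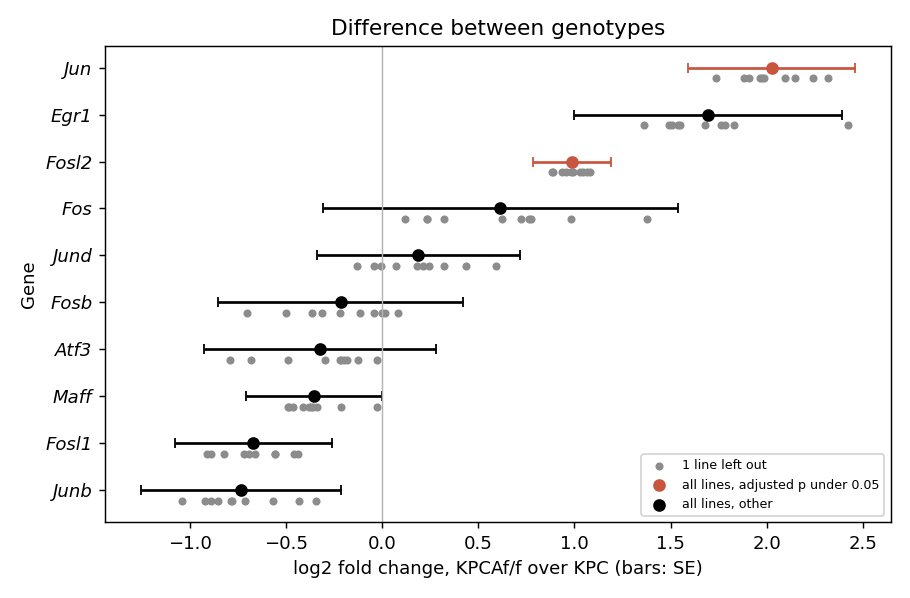
Log2 fold change of each gene, KPCAf/f over KPC, with its SE over 10 lines; grey points are the same fit with 1 line left out. Jun (2.03) and Fosl2 (0.99) are in red, and the grey points of Fosb and Jund lie on both sides of 0.

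Egr1, a zinc finger factor induced with Fos but outside AP-1, was at 95.4 normalized counts in A1620, 144 in A1625, 137 in A2031 and 231 in A2032, and at 1825 in the fifth KPC line, A1081. The KPCAf/f lines had 1160.4 in A1693, 534 in A1809, 605 in A1925, 1202 in A2441 and 639 in A3992. Thus 4 KPC lines lay below the KPCAf/f range, while A1081 lay above it. The means were 487 ± 749.9 and 828 ± 325 (SD, n = 5 each), and the log2 fold change of 1.69 (SE 0.70) missed the threshold (limma adjusted p = 0.295). Without A1081 the KPC mean was 152 ± 56.9 (n = 4), and the log2 fold change of 2.42 passed (limma adjusted p = 0.00886). That line was singled out after its values were seen. By edgeR the log2 fold change was 0.77 (adjusted p = 0.662). Egr1 lies on chromosome 18 at 34859823 to 34864984 (GRCm38, plus strand).

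Fos, the founding partner of Jun, varied most of all members among KPC lines. It was at 1076 normalized counts in A1081 and at 31.8, 44.0, 133 and 175 in A1620, A1625, A2031 and A2032. The KPCAf/f lines had 71.1 in A1693, 573 in A1809, 127 in A1925, 132 in A2441 and 448 in A3992. Both genotypes thus held lines with little Fos and lines with much, and their medians were 133 and 132. The highest KPC line was 33.9-fold above the lowest, and the SD among KPC lines on the log2 scale, 1.99, exceeded that of 96.4% of the 1309 tested genes nearest in mean level. The means were 292 ± 443 and 270.1 ± 225 (SD, n = 5 each), with KPC at 96.0 ± 69.5 without A1081. The log2 fold change of 0.61 (SE 0.93, limma adjusted p = 0.772) turned to -0.11 by edgeR, so no direction is given.

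Fosb, a close relative of Fos, was the lowest member, at 164, 31.8, 53.8, 135 and 46.4 normalized counts in the KPC lines A1081, A1620, A1625, A2031 and A2032. It was at 61.2, 238, 32.9, 46.1 and 37.0 in the KPCAf/f lines A1693, A1809, A1925, A2441 and A3992. One KPCAf/f line, A1809, was above all others, and without it the KPCAf/f mean of 83.1 ± 87.4 became 44.3 ± 12.6 (n = 4). The log2 fold change was -0.22 (SE 0.64, limma adjusted p = 0.888). Reads of Fosb ranged from 24 to 291 per library, so counting error is larger here than for the other members.

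Fosl1, the Fos relative that ERK signalling maintains, was at 1506, 2188, 1637, 2196 and 867 normalized counts in the KPC lines in the same order. The KPCAf/f lines had 1957 in A1693, 521 in A1809, 1147 in A1925, 1531 in A2441 and 557 in A3992. Fosl1 was lowest in A1809 and A3992, the KPCAf/f lines with most Fos, and the genotypes overlapped. The means were 1679 ± 552 and 1143 ± 621 (SD, n = 5 each; log2 fold change -0.67, SE 0.41, limma adjusted p = 0.470). Its antisense neighbour Ccdc85b overlaps it and had 1360 normalized counts in A1620 against 61.7 to 319.5 elsewhere, so the strand-specific share of reads in A1620 is uncertain.

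Junb and Jund, which activate less strongly than Jun and can oppose it, did not differ past the threshold. Junb was at 4605, 6658, 1878, 2072 and 1728 normalized counts in the KPC lines and at 588, 4098, 2025, 1658 and 1989 in the KPCAf/f lines A1693, A1809, A1925, A2441 and A3992. A1693, the line with most Jun, had the least Junb. The log2 fold change of Junb was -0.74 (SE 0.52, limma adjusted p = 0.532), and it was -0.04 without A1620 and A1693. Jund was at 1146, 3566, 681, 616 and 1257 in KPC against 1139.7, 3221, 1835, 922 and 663 in KPCAf/f (log2 fold change 0.19, SE 0.53, limma adjusted p = 0.882). The KPC mean of Jund, 1453 ± 1214, was 925 ± 324 without A1620. Both were highest in A1620, the line whose levels fell with length. Their longest annotated transcripts are the shortest among the members, whereas by the median transcript Fosl1 and Fos are shorter, and Fos was lowest in A1620. Junb shares bases with the antisense gene Prdx2, which was at 14260 normalized counts in A1620 and 3034 to 5721 elsewhere.

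Atf3, a stress-induced repressor that can pair with Jun proteins, and Maff, a small Maf protein without an activation domain, also overlapped between genotypes. Atf3 was at 558, 342, 153, 89.4 and 328 normalized counts in the KPC lines and at 113, 714, 131, 145 and 182 in the KPCAf/f lines in the same order. The high KPCAf/f line was again A1809, and without it the KPCAf/f mean of 257 ± 257 was 142 ± 29.2 (n = 4; log2 fold change over all lines -0.32, SE 0.60, limma adjusted p = 0.818). Maff was at 789, 769.6, 608, 867 and 1223 in KPC against 261, 929.8, 655, 759.9 and 941 in KPCAf/f, lowest in A1693 (log2 fold change -0.36, SE 0.35, limma adjusted p = 0.654). Among KPC lines Maff and Fosl2 varied least on the log2 scale, with SDs of 0.37 and 0.28.

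Seen by line, A1081 (KPC) and A1809 (KPCAf/f) each held 5 of the 10 members among their 2 highest values over all lines. A1081 was highest for Fos and Egr1, and A1809 for Fosb and Atf3. A1620 was lowest for Fos, Fosb, Fosl2 and Egr1 and highest for Junb and Jund. A1693 was highest for Jun and lowest for Junb and Maff. The slope with transcript length was lowest by far in A1620, and it was higher in every KPCAf/f line than in every KPC line. The loss of epithelial markers moved with A1693. The part of length and of these markers in the members' values was not tested. In cultures, fewer cells of a kind and less RNA per cell cannot be told apart.

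**Figure D3:**
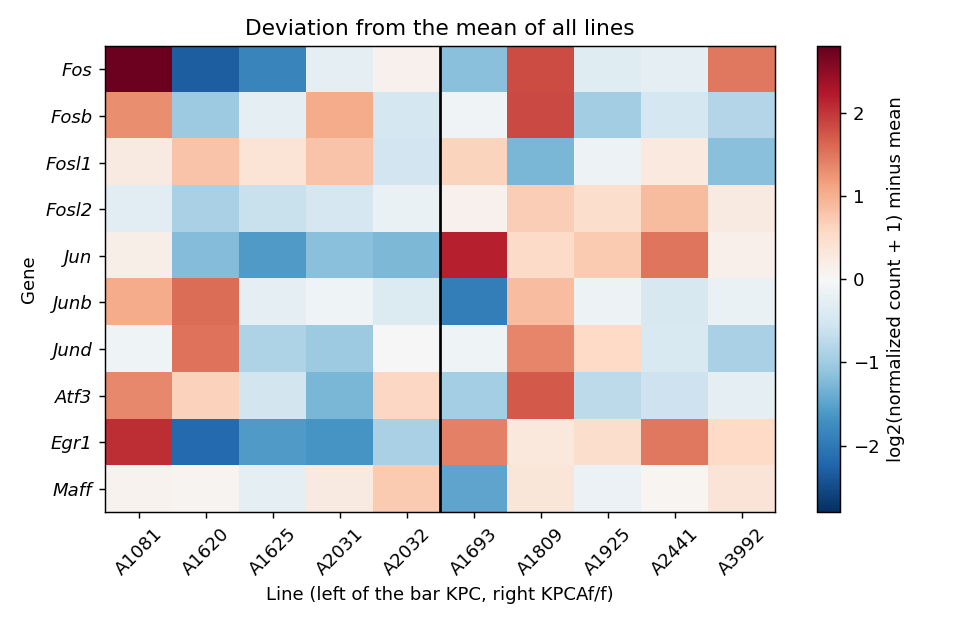
Deviation of log2(normalized count + 1) from the mean of all 10 lines, genes in rows and lines in columns, KPC left of the black bar and KPCAf/f right of it; red is higher. Jun, Fosl2 and Egr1 are blue on the left and red on the right, except that A1081 is above the mean for Egr1 (2.07) and Jun (0.16), while Fos and Atf3 are high in A1081 and A1809.

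Levels were compared between genes per kilobase of the longest annotated transcript. On this scale Fosl1 was the leading Fos family member in every KPC line, with 51.5% to 87.9% of the family (mean 72.0% ± 15.8, SD, n = 5). In KPCAf/f lines its share was 27.1% in A1809, 36.0% in A3992, 58.7% in A1925, 59.9% in A2441 and 76.1% in A1693 (mean 51.6% ± 19.8). Fosl2 held 13.2%, 10.3%, 15.5%, 12.7% and 28.8% in A1081, A1620, A1625, A2031 and A2032, and 20.3%, 40.4%, 34.7%, 34.6% and 37.2% in A1693, A1809, A1925, A2441 and A3992. Only A2032 and A1693 overlapped, and in A1809 and A3992 Fosl2 exceeded Fosl1. The Fosl2 share rests on the length chosen: with the median transcript length its KPCAf/f mean was 22.1% in place of 33.4%, and Fosl1 then led in all 10 lines. Fos made up 32.5% of its family in A1081, 26.4% in A1809 and 25.6% in A3992, and 1.1% to 10.6% in the other 7 lines.

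In the Jun family Junb led in each KPC line, at 53.8% to 74.5% of the family per kilobase. In KPCAf/f it was at 18.6% in A1693 and 44.96% to 65.6% in the other lines. Jun made up 5.3% in A1081, 1.2% in A1620, 3.6% in A1625, 4.6% in A2031 and 3.8% in A2032. Its share was 42.2% in A1693, 5.3% in A1809, 10.8% in A1925, 23.8% in A2441 and 10.7% in A3992. Jun thus stayed the smallest Jun family RNA in 9 of 10 lines, and in A1693 it was the largest. These shares are descriptions and were not tested, since Jun and Fosl2 enter them.

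**Figure D4:**
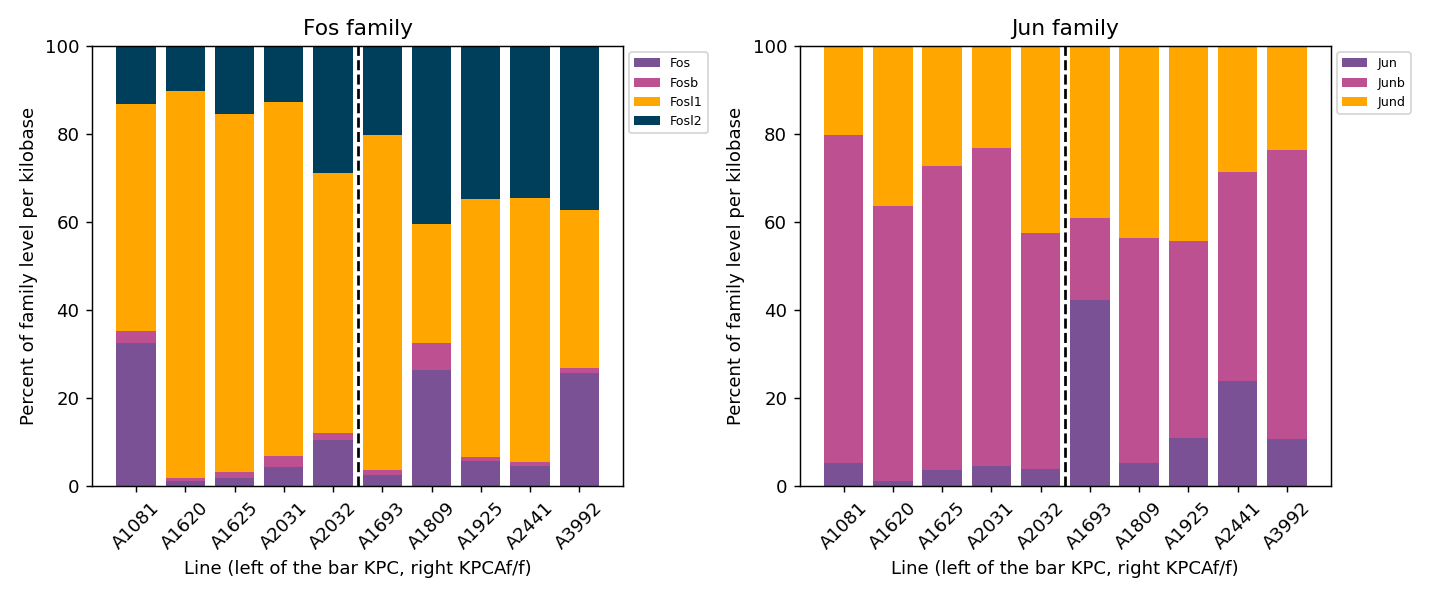
Share of each member in the summed level per kilobase of the Fos family (left panel) and of the Jun family (right panel) in each line, stacked to 100%, KPC left of the dashed bar. The Fosl2 part averages 16.1% in KPC and 33.4% in KPCAf/f, and the Jun part 3.7% and 18.6%.

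The lines fell into separate clusters in the plane of Jun and Egr1. A1620, A1625, A2031 and A2032 were low in both, and A1081 stood with the 5 KPCAf/f lines. No correlation is therefore given for that pair, nor for pairs with Fosl2, whose genotypes do not overlap. Over all 45 pairs of members, 0 passed a two-sided permutation test after Benjamini-Hochberg adjustment, by Pearson's r or by Spearman's rho, and 4 had an unadjusted p under 0.05 for r. Among the remaining pairs, Junb and Atf3 had the largest r, 0.70 (permutation p = 0.0225, adjusted p = 0.338; rho 0.54, p = 0.113, adjusted p = 0.508; 10 lines), and 0.79 without A1693 and A1620. Fos and Fosl1 had an r of -0.63 (permutation p = 0.0529, adjusted p = 0.363; rho -0.65, p = 0.0486, adjusted p = 0.5) and of -0.81 without A1081 and A1809. The relation of Fos with Fosb, r of 0.60 (permutation p = 0.0662, adjusted p = 0.363; rho 0.56, p = 0.0966, adjusted p = 0.508), rests on A1081 and A1809, since r was 0.02 without them.

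**Figure D5:**
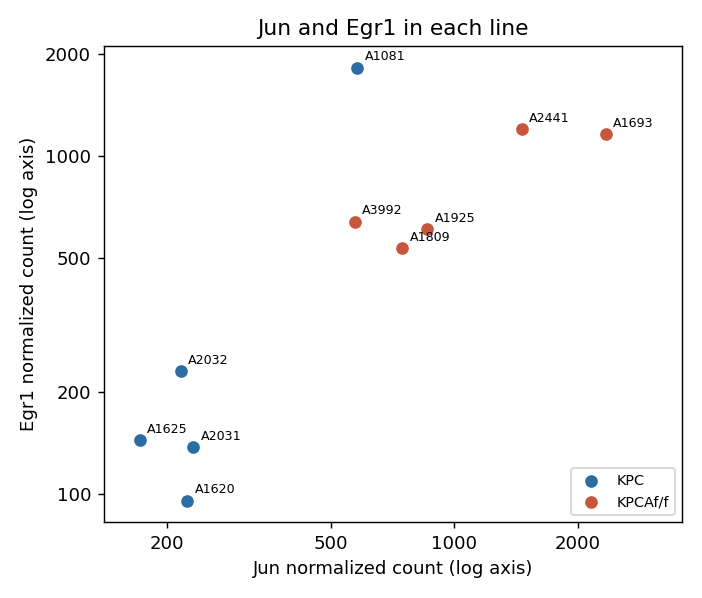
Jun against Egr1 in each line, both as normalized counts on log axes, KPC in blue and KPCAf/f in red. KPC lines A1620, A1625, A2031 and A2032 sit at the lower left, and A1081 (Jun 581, Egr1 1825) sits with the KPCAf/f lines.

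The genes whose levels followed each member most closely were sought among 11867 named genes after each genotype's mean was subtracted, over 10 lines. The nearest were Rora for Fos (r = 0.93), Osbpl5 for Fosb (0.93), Kctd17 for Fosl1 (0.95), Tes for Fosl2 (0.94), Ncapd2 for Jun (0.95), Psca for Junb (0.95), Leprotl1 for Jund (0.96), Itpkc for Atf3 (0.95), Copb2 for Egr1 (0.96) and Grasp for Maff (0.985). The second nearest were Rab12 for Fos, Epha1 for Fosb, Nrp2 for Fosl1, Zc3h12a for Fosl2, Mreg for Jun, Sap30 for Jund, Fbxo22 for Atf3, Ints4 for Egr1 and Gipc2 for Maff. Each value is the highest of a search over all these genes and describes these libraries only. Without the subtraction, r over the 10 lines ran from -0.01 (Ncapd2 with Jun) and 0.19 (Tes with Fosl2) up to 0.98 (Grasp with Maff). A gene near a member here therefore need not follow its level over all lines.

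Of the other immediate early genes, limma called Nr4a2 alone. Nr4a1, Rhob and Btg2 also had higher means in KPCAf/f, with unadjusted limma p of 0.0206, 0.0388 and 0.0468. Of 23 listed, 19 were tested, 1 was called higher and 0 lower by limma, 0 by edgeR or limma-voom and 1 higher by DESeq2, and 4 had an unadjusted limma p under 0.05. The median log2 fold change was 0.14, against -0.01 over all genes. Nr4a2, an orphan nuclear receptor, was at 85.2, 17.2, 54.8, 62.6 and 144 normalized counts in KPC and 473, 319, 266, 281 and 202 in KPCAf/f, with no overlap (log2 fold change 2.30, SE 0.51, limma adjusted p = 0.0492). Its call was lost without any 1 of 8 lines, all but A1620 and A2032 (limma adjusted p up to 0.111). Its relative Nr4a1 was at 345 ± 134 and 673 ± 284 (limma adjusted p = 0.243), the GTPase gene Rhob at 973 ± 495 and 2113 ± 1233 (0.313), the antiproliferative gene Btg2 at 321 ± 232 and 623 ± 320.4 (0.333) and the kinase gene Sgk1 at 897 ± 689 and 1434 ± 716 (0.528). Egr2, Egr3, Egr4 and Nr4a3 did not reach the filter.

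Factors that act on immediate early promoters and other dimer partners mostly did not pass. Of 8 tested genes of SRF, its cofactors and CREB, 0 were called by limma, edgeR, DESeq2 or limma-voom and 2 had an unadjusted limma p under 0.05, namely Elk1, an ERK-activated SRF partner, at 474 ± 118 against 704 ± 123 in KPCAf/f (limma adjusted p = 0.291), and Crem, a CREB relative, at 87.5 ± 27.9 and 149 ± 39.2 (0.293). The SRF cofactor Mkl2 was at 769 ± 326 and 956 ± 148, and the SRF partner Elk3 at 2540.4 ± 929 and 2190 ± 766. Of 17 tested bZIP partners, 1 was called higher and 0 lower with each of the 4 tools (median of the log2 fold changes 0.01). This was Bach2, a repressor that pairs with small Maf proteins, at 9.5, 2.6, 0.98, 5.6 and 3.1 in KPC and 97.2, 41.7, 90.2, 38.2 and 135 in KPCAf/f (log2 fold change 3.99, SE 0.57, limma adjusted p = 0.0039). It was below 10 in every KPC line, so it could be tested only because every KPCAf/f line reached 10. Its call held without any 1 line, but the filter for these fits was taken from all 10 lines. With a KPCAf/f line left out of the filter as well, too few lines would have reached 10 for Bach2 to be tested. The fits without a KPCAf/f line therefore do not show that its call stands without that line. Maf was at 75.4 ± 51.4 and 214 ± 166, Atf4 at 8661 ± 2966 and 6381 ± 1398, Atf7 at 1073 ± 400.3 and 1417 ± 177 and Nfe2l2, the oxidative stress factor NRF2, at 6467 ± 2124 and 4712 ± 1728, each with a limma adjusted p above the threshold.

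Genes of the MAP kinase chain gave no call. Of 21 tested, 0 passed with limma, limma-voom, DESeq2 or edgeR, and 0 had an unadjusted limma p under 0.05 (median log2 fold change -0.08). Map2k2, which encodes the ERK kinase MEK2, was at 3801 ± 2729 in KPC against 2060.5 ± 328 in KPCAf/f, and A1620 alone was at 8644. Map2k1 was at 2615 ± 742 and 2041 ± 460, the p38 activator Map2k3 at 2747 ± 436 and 2137 ± 502, and the p38 gene Mapk11 at 453 ± 218 and 274 ± 113. Among ERK feedback and output genes, limma called 1 of 14 higher and 0 lower. Limma-voom called 0, DESeq2 2 and edgeR 1, all higher (median of the log2 fold changes 0.48, with 6 at an unadjusted limma p under 0.05). Etv1, an ETS factor, was at 0, 0, 5.9, 3.4 and 0 normalized counts in KPC and 974, 27.0, 168, 274 and 32.6 in KPCAf/f (log2 fold change 6.08, SE 1.03, limma adjusted p = 0.0109). Like Bach2, it was below 10 in every KPC line and could be tested only because every KPCAf/f line reached 10. Its call was lost by limma-voom and with a minimum mean of 100, and its KPCAf/f mean of 295 ± 393 was 125 ± 119 without A1693. No feedback inhibitor passed by limma. The ERK phosphatase gene Dusp6 was at 3958 ± 1494 and 2062 ± 895 (limma adjusted p = 0.213), while Spred3 was at 192 ± 61.1 and 564 ± 341 (0.165), Spred1 at 1127 ± 427 and 1962 ± 564 (0.295) and Spry4 at 406 ± 237 and 735 ± 245 (0.303).

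No textbook AP-1 target gene passed the limma test. Of 15 tested among 20, 0 were called by limma, edgeR or limma-voom, 2 higher and 1 lower by DESeq2, and 5 had an unadjusted limma p under 0.05 (median log2 fold change 0.03). The urokinase gene Plau was at 382, 224, 253, 256 and 181 normalized counts in KPC and at 1937, 9523, 716, 1434 and 360.4 in KPCAf/f (log2 fold change 2.54, SE 0.71, limma adjusted p = 0.120). It passed without A3992 (limma adjusted p = 0.0406), but the limma adjusted p was up to 0.219 with another line left out. Its receptor gene Plaur was lower in every KPCAf/f line, at 1979 to 3248 against 3508 to 6838 in KPC (log2 fold change -0.77, SE 0.24, limma adjusted p = 0.157). The EGF-like ligand gene Areg likewise did not overlap, at 975 to 1657 in KPC and 31.5 to 687 in KPCAf/f (log2 fold change -2.29, SE 0.68, limma adjusted p = 0.142). Areg passed without A1693 (limma adjusted p = 0.0347), but the limma adjusted p was up to 0.243 with another line left out. Over all genes, 1.69% were separated in this way, with every KPCAf/f line lower. The chemokine gene Ccl2 was at 20.04 ± 16.1 and 237 ± 188 (limma adjusted p = 0.301). It passed without A3992, which had 3.5 (limma adjusted p = 0.0244), but the limma adjusted p was up to 0.487 with another line left out. The lines left out for these passes were singled out after their values were seen.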

How the data were processed

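The authors' deposited table holds a signal that is never negative, gene counts divided by DESeq2 size factors, for 10 libraries. Per the labels' protocols, RNA came from an RNeasy preparation and libraries from a TruSeq kit that marks strand. Per the submitters' processing notes, reads were handled with STAR 2.5.2b, Trimmomatic 0.36 and bcl2fastq 1.8.4, and the notes also list Subread 1.5.0p3 with featureCounts, R 3.3.2 and DESeq2 1.14.1. Of builds, mm9 and GRCm38.p5 are listed without a role, and the strand setting and annotation behind the counts were not given. Reads of overlapping and antisense genes are therefore uncertain. Dividing by what 1 read is worth gave whole reads within 0.001 read for 100.0% of values in each library, and edgeR called 172 genes on these reads. No library was a copy of another (lowest chi-square per degree of freedom 60.6).

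Genotypes were compared two-sided by limma-trend (limma 3.58.1 in R 4.3.3) after log2(x + 1) of the normalized counts, adjusted over 13089 genes. Other settings were pseudocounts of 0.5 and 5, no filter, quantile scaling, TMM, a minimum mean of 100, array weights, limma-voom, DESeq2 1.42.0 and edgeR 4.0.16 fitted to recovered reads, a loess correction for the longest annotated transcript length, and lines left out. The tests were checked on simulated data, where DESeq2 made false calls more often than its nominal rate, so its calls are the least strict, and where limma missed most changes as small as that of Fosl2. Correlations used 100000 permutations. Transcript lengths and gene coordinates follow GENCODE M21 for GRCm38, where 95.3% of symbols were found, and promoters from RefSeq. The members, lists and tests were chosen with earlier results of these data known. Genes named are the members, Arid1a, the called genes of each list and, besides, the 4 with the smallest limma p-values, the 2 nearest genes of each member, and markers. One of the nearest genes is not reported here.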

Additional observations from a re-analysis of the deposited data

Results flagged for a closer look

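In 13 of the 76 sets of 5 lines checked (each of 38 genes in each genotype), 1 line lay far from the other 4. The rule expects this in about 1 in 20 sets of normally distributed values. It was applied to normalized counts without logs, which need not be normal, so no excess over chance is read from it. Among members, A1081 stood above the other KPC lines for Fos (1076 normalized counts against 31.8 to 175), Jun (581 against 171 to 231) and Egr1 (1825 against 95.4 to 231). A1809 stood above the other KPCAf/f lines for Fosb (238 against 32.9 to 61.2) and Atf3 (714 against 113 to 182), and A1620 above the other KPC lines for Jund (3566 against 616 to 1257). Among the pathway genes, A1620 was apart for Mkl2 (203), Atf4 (13759), Map2k2 (8644) and Spred1 (389), A1693 for Etv1 (974), A1809 for Plau (9523) and A2032 for Areg (1657).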

How the results depend on the processing

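No paired analysis was possible because no label links a KPC line to a KPCAf/f line. The count of members called higher was 2. It was 1 with no filter, by edgeR and without A1620 and A1693, 0 by limma-voom and with the length correction, and 0 to 2 when 1 line was left out, while 0 were called lower under every setting. Over the whole table the 178 higher calls became 109 with a mean of at least 100, 403 with array weights, 521 by DESeq2 and 76 by limma-voom, and 122 to 227 with 1 line left out. The 51 lower calls became 22, 183, 210 and 29 under these settings, 27 by edgeR and 24 to 91 with 1 line left out. Over the 6 pathway lists the 3 higher calls became 5 with no filter, 0 with a mean of at least 100, 6 by DESeq2 and 1 by limma-voom, with 1 lower call by DESeq2 and 0 to 1 with 1 line left out. The cause of these shifts was not tested.

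Directions that turned were all of genes without a call. The log2 fold change of Fos was -0.11 by edgeR and -0.12 by DESeq2. With 1 line left out that of Fosb ran from -0.70 to 0.0828 and that of Jund from -0.13 to 0.59. Mkl2 was at -0.00191 without A1620 and A1693. Jun, Fosl2, Egr1, Fosl1, Junb, Atf3 and Maff kept their sign under all 22 other settings. Jun lost its call in 11 of them and Fosl2 in 10. No pair of members correlated past the threshold under the 4 other settings run for it. With 5 lines a group, members that did not pass are not shown to be alike between genotypes.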
